A study of Arabidopsis thaliana with 8 samples.

Results

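Aquaporins are channel proteins that let water, and in some classes small neutral solutes, pass through membranes. Plants sort them into plasma membrane intrinsic proteins (PIPs), tonoplast intrinsic proteins (TIPs) of the vacuole, nodulin 26-like intrinsic proteins (NIPs), several of which carry boric acid or other metalloids, and small basic intrinsic proteins (SIPs) of the endoplasmic reticulum. In Arabidopsis the PIPs and TIPs set much of the water permeability of root and leaf cells, and the filling of the vacuole drives the elongation of growing cells. The 35 aquaporin genes examined here were taken by locus from the 25665 loci on the array and comprise 13 PIPs, 10 TIPs, 9 NIPs and 3 SIPs. Gene names are written with a hyphen, so that TIP2-1 stands for the name with a semicolon. Each gene had 1 probe, no probe was saturated, and 31 of the 35 could be tested, with a signal well above background on 3 or more arrays of either genotype.

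The measurements were made on whole 2-week-old seedlings of the Columbia-0 ecotype with one-colour arrays, 4 for wild type and 4 for 35S:MYB87-SRDX. MYB87 belongs to the R2R3 MYB transcription factors, SRDX is a short motif that makes such a factor repress its targets, and the 35S promoter is active in most tissues. No group carried MYB87 without SRDX. Each sample held 5 seedlings that the labels call T2, grown at 23 °C with 16 h of light and 8 h of darkness on medium containing 1% sucrose. Hygromycin is named in the medium of the MYB87-SRDX samples and not in that of the wild type, and the labels do not say how many transgenic lines were sampled or whether samples of a group came from separate cultures, so p-values measure only how these samples spread, which may be technical. The slides coincided with the groups, 1 for wild type and 1 for MYB87-SRDX. Genotype, hygromycin and slide therefore cannot be told apart.

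Levels are log2 signals minus that of the 75th percentile on each array, which lay between 1539 and 2055 intensity units. Levels of different probes are not comparable with each other. Differences are MYB87-SRDX minus wild type on the log2 scale ± the standard error from limma, and a gene was called at a Benjamini-Hochberg adjusted p below 0.05 over 20262 loci. MYB87 (AT4G37780) itself read 5.75, 5.52, 5.58 and 2.53 on the MYB87-SRDX arrays and between -7.44 and -5.48 in wild type. MYB87-SRDX replicate 4 thus stood apart from the other transgenic arrays for this probe. It is also the array that overlapped wild type for TIP2-2 and NIP6-1 below, while TIP2-1 (6.59) and SIP2-1 (1.95) on it were above all wild-type arrays. A link to the MYB87 level was not tested. Without replicate 4 TIP2-1 differed by 0.90 (adjusted p 0.00306 by limma), TIP2-2 by -0.64 (0.0375) and SIP2-1 by 0.34 (0.0752). Of all loci, 3018 were higher and 2547 lower in MYB87-SRDX, so that 54.2% of calls were higher (65.7% with median scaling). Leaf markers and root markers were well above background in both groups, with LRX1 on 3 of the 4 wild-type arrays, while 3 of 4 pollen markers were not well above background on any array.

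Most aquaporin transcripts showed small differences between the groups. TIP2-1 rose 1.83-fold, SIP2-1 rose 1.26-fold and TIP2-2 was 1.45-fold lower, and these were the calls by limma among the 31 genes tested. The 3 calls are 9.68% of the tested members, where 27.5% of all loci tested were called. By direction, 2 members were higher, against a background of 14.9%, and 1 was lower, against 12.6%. At an unadjusted p below 0.05 there were 9 members, or 29.0%, where all loci gave 41.2%. No member was called with a change of 2-fold or more. Groups did not overlap for 5 members, or 16.1%, and for 30.7% of all loci.

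The size of the differences was close to that of other genes, and the spread between arrays was larger. The median absolute difference was 0.19 over the 31 aquaporins and 0.22 over all loci. The median standard deviation among wild-type arrays was 0.20 for the aquaporins and 0.15 for all loci, and that among MYB87-SRDX arrays was 0.17 against 0.13. For 22 of the 31 members the 95% confidence interval lay wholly within a 2-fold change in either direction, compared with 82.0% of all loci. For the others the interval reached past 2-fold in at least 1 direction. Less RNA per cell and fewer cells of a type cannot be told apart in RNA from whole seedlings.

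**Figure D1:**
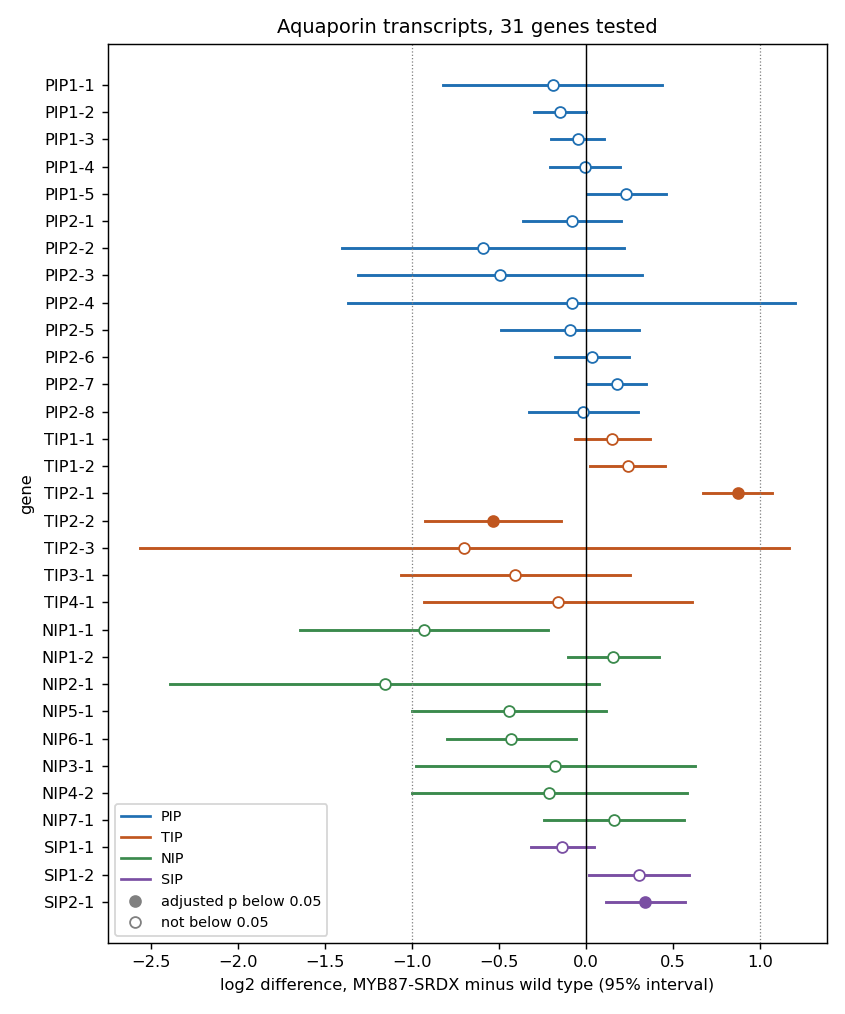
Log2 difference of MYB87-SRDX minus wild type with its 95% confidence interval (horizontal axis) for each of the 31 tested aquaporin genes (vertical axis), coloured by class. Filled points mark TIP2-1, TIP2-2 and SIP2-1, the genes with an adjusted p below 0.05, and dotted lines mark a 2-fold change.

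The counts of called members by class were not tested against each other, and over all loci 27.5% were called and 41.2% had an unadjusted p below 0.05. Of 13 PIPs, 0 were called by limma and 2 had an unadjusted p below 0.05, with a median difference of -0.08. Of 7 tested TIPs, 1 was higher and 1 lower, and 3 had an unadjusted p below 0.05, with a median of -0.16. Of 8 tested NIPs, 0 were called and 2 had an unadjusted p below 0.05, with a median of -0.32. Of 3 SIPs, 1 was higher and 2 had an unadjusted p below 0.05, with a median of 0.30. The median over all loci was 0.01. The direction of the PIP and TIP medians is not firm. That of the PIPs was 0.01 with median scaling. That of the TIPs was 0.17 with normexp background correction, 0.15 without wild type replicate 1 and 0.02 without MYB87-SRDX replicate 3. That of the NIPs and SIPs together was -0.18, with 0.12 under normexp and -0.03 without wild type replicate 1. Medians of the NIPs alone and of the SIPs alone were not taken in the alternatives. SIP1-2 and SIP2-1 stayed positive in all alternatives, with lowest differences of 0.22 and 0.27, and SIP1-1 stayed negative.

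All 13 PIPs, the channels of the plasma membrane, were well above background on all arrays. PIP1-2 (AT2G45960), a channel for water and carbon dioxide, read 5.58, 5.58, 5.63 and 5.65 in wild type and 5.52, 5.47, 5.33 and 5.52 in MYB87-SRDX. Its groups did not overlap, but its change of -0.15 ± 0.06 (SE) had an adjusted p of 0.123 by limma (0.0202 with quantile scaling). PIP1-3 (AT1G01620), another channel of the PIP1 subclass, read 5.28, 5.27, 5.28 and 5.21 in wild type and 5.30, 5.20, 5.08 and 5.25 in MYB87-SRDX, with a difference of -0.05 ± 0.07. Both genes varied little, and the 95% confidence interval of PIP1-3 ran from -0.20 to 0.10.

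PIP1-1 (AT3G61430) varied more, with 5.17, 4.73, 4.23 and 4.30 in wild type and 4.61, 4.62, 3.75 and 4.67 in MYB87-SRDX. The low value of MYB87-SRDX replicate 3 and the high value of wild type replicate 1 recur in other PIPs described below. PIP1-4 (AT4G00430), which is known as one of the few PIPs that drought raises, differed by -0.01 ± 0.09. PIP1-5 (AT4G23400) differed by 0.23 ± 0.10, with an adjusted p of 0.118 by limma.

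Among the PIP2 channels, PIP2-1 (AT3G53420), which serves root water transport and guard cells, read 4.72, 4.78, 4.39 and 4.48 in wild type and 4.48, 4.53, 4.30 and 4.73 in MYB87-SRDX. The ranges overlapped and the difference was -0.08 ± 0.12. PIP2-7 (AT4G35100) read 4.61, 4.79, 4.66 and 4.54 in wild type and 4.92, 4.796, 4.81 and 4.77 in MYB87-SRDX. Its lowest transgenic value lay just under the highest wild-type value, and the difference was 0.17 ± 0.07 with an adjusted p of 0.11 by limma. PIP2-6 (AT2G39010) differed by 0.04 ± 0.09 and PIP2-8 (AT2G16850) by -0.02 ± 0.14. PIP2-5 (AT3G54820), another PIP known to be raised by drought, had a low signal and differed by -0.09 ± 0.17.

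PIP2-2 (AT2G37170) and PIP2-3 (AT2G37180) are neighbouring genes of nearly identical sequence, and the files give no probe sequences, so their probes may not tell them apart. PIP2-2 read 4.24, 3.80, 3.23 and 3.21 in wild type and 3.17, 3.29, 2.10 and 3.55 in MYB87-SRDX. PIP2-3 read 1.02, 0.46, -0.26 and -0.16 in wild type and -0.17, -0.02, -1.01 and 0.27 in MYB87-SRDX. Both probes were highest on wild type replicate 1 and lowest on MYB87-SRDX replicate 3, and the groups overlapped. The differences were -0.59 ± 0.35 and -0.50 ± 0.35, with adjusted p values of 0.239 and 0.321 by limma. Without MYB87-SRDX replicate 3 they were -0.28 and -0.24, and without wild type replicate 1 they were -0.39 and -0.24. PIP2-4 (AT5G60660), a root channel, spanned 0.85 to -0.85 in wild type and 0.71 to -1.64 in MYB87-SRDX. Its difference of -0.08 ± 0.56 has an interval from -1.37 to 1.20, which spans a 2-fold change both ways.

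The TIPs, channels of the vacuolar membrane, held the clearest change of the family. TIP2-1 (AT3G16240), a water and ammonia channel of shoots and vascular tissue also known as delta-TIP, read 5.78, 5.81, 5.79 and 5.83 in wild type and 6.91, 6.58, 6.60 and 6.59 in MYB87-SRDX. The wild-type arrays spanned 0.05 and every MYB87-SRDX array was above them. It rose by 0.87 ± 0.09, and limma gave an adjusted p of 0.00126. The call held in all 19 alternatives run, with differences from 0.73 to 0.96 and adjusted p values from 0.000708 to 0.0213.

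TIP2-2 (AT4G17340), a close relative of TIP2-1 that is best known from roots, went the other way. It read 3.82, 4.07, 3.67 and 3.47 in wild type and 3.06, 3.36, 2.92 and 3.54 in MYB87-SRDX, so that MYB87-SRDX replicate 4 overlapped the wild type. It fell by 0.53 ± 0.17, with an adjusted p of 0.0496 by limma, just inside the threshold. The call was lost in 11 of 19 alternatives. Leaving out 1 array ended it for wild type replicates 1, 2 and 3 (adjusted p of 0.0827, 0.124 and 0.0819) and for MYB87-SRDX replicates 1, 2 and 3 (0.125, 0.0728 and 0.103). TIP2-3 (AT5G47450), the third member of this subclass and a root gene, read 0.75, 0.56, -0.62 and -1.82 in wild type and -0.25, -0.27, -3.15 and -0.27 in MYB87-SRDX. Its difference of -0.70 ± 0.81 is smaller than the spread within either group, and it was 0.02 without MYB87-SRDX replicate 3.

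**Figure D2:**
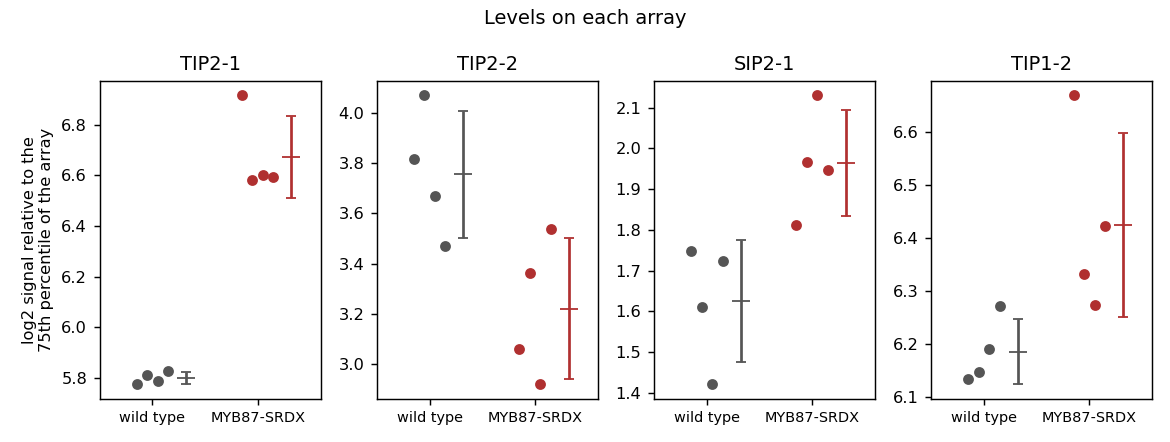
Log2 level (vertical axis, a separate range for each gene that does not start at 0) for TIP2-1, TIP2-2, SIP2-1 and TIP1-2. Points are the 4 arrays of each group and bars give the mean ± SD. TIP2-1, SIP2-1 and TIP1-2 do not overlap between the groups, and TIP2-2 does.

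TIP1-1 (AT2G36830) and TIP1-2 (AT3G26520), the gamma-TIPs of expanding cells, had positive differences that did not pass. TIP1-2 read 6.13, 6.15, 6.19 and 6.27 in wild type and 6.67, 6.33, 6.27 and 6.42 in MYB87-SRDX. Its groups were separated by a margin under the last digit shown, and the difference was 0.24 ± 0.09 with an adjusted p of 0.0927 by limma. TIP1-1 read 5.63, 5.50, 5.29 and 5.53 in wild type and 5.74, 5.58, 5.50 and 5.72 in MYB87-SRDX. The TIP1-1 groups overlapped, and the difference was 0.15 ± 0.09. TIP4-1 (AT2G25810), a root gene, read -0.90, -1.67, -2.66 and -2.18 in wild type and between -2.20 and -1.85 in MYB87-SRDX, with a difference of -0.16 ± 0.33. The wild-type arrays of TIP4-1 spread far more widely than those of MYB87-SRDX.

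TIP3-1 (AT1G73190) and TIP3-2 (AT1G17810) are the seed TIPs of protein storage vacuoles. TIP3-1 read -4.43, -4.04, -5.13 and -5.38 in wild type and between -5.40 and -4.95 in MYB87-SRDX, with a difference of -0.41 ± 0.29 and an adjusted p of 0.313 by limma. TIP3-2 was well above background on wild type replicate 2 alone, 1 of the 8 arrays, where it read -6.75. That array also had the highest TIP3-1 signal and the highest signal of the seed storage gene CRU1, a cruciferin, which read -4.02, -1.72, -4.95 and -5.57 in wild type and was not detected above background in MYB87-SRDX. Of 6 seed markers, CRU1 and EM6 passed the filter, CRU1 through wild type alone, so that its MYB87-SRDX level is a bound. EM6, an embryo protein gene detected on all arrays, read -2.96, -3.44, -3.44 and -4.00 in wild type and -5.46, -4.77, -5.89 and -5.24 in MYB87-SRDX, without overlap. Their part in the TIP3-1 values was not tested.

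TIP1-3 (AT4G01470) and TIP5-1 (AT3G47440), known from pollen, and NIP4-1 (AT5G37810), known from flowers, were not well above background on any array. No fold is given for these genes or for TIP3-2. Of the 4 pollen markers, the calcium pump gene ACA9 was measured, and VGD1, VGDH1 and MGH3 were not well above background on any array. NIP4-2 (AT5G37820), which lies beside NIP4-1, was detected on 7 of the 8 arrays and differed by -0.21 ± 0.34. NIP7-1 (AT3G06100), a boric acid channel of the anther tapetum, was measured on all 8 arrays and differed by 0.16 ± 0.17 (0.34 without MYB87-SRDX replicate 3, with an adjusted p of 0.0437 by limma).

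The NIPs had mostly negative differences, none of which passed. NIP1-1 (AT4G19030), a channel through which arsenite and antimonite enter roots, read -0.77, -1.33, -2.20 and -2.04 in wild type and -2.62, -2.82, -2.24 and -2.40 in MYB87-SRDX. Every MYB87-SRDX array was below every wild-type array. The difference was -0.93 ± 0.31, and limma gave an adjusted p of 0.0568. The gene passed without wild type replicate 3 (0.0385), without wild type replicate 4 (0.0492), with median scaling (0.0421) and with a trended variance (0.0475).

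NIP2-1 (AT2G34390), a root channel that low oxygen raises, read -1.97, -2.63, -4.57 and -3.93 in wild type and -4.42, -4.50, -4.82 and -3.99 in MYB87-SRDX. Wild type replicates 1 and 2 stood above all other arrays. Wild type replicate 4 (-3.93) was just above the highest transgenic array (-3.99), and wild type replicate 3 lay within the transgenic range. The difference of -1.16 ± 0.54 was the largest of the family with all 8 arrays and had an adjusted p of 0.141 by limma. Normexp gave -0.39. The value was -0.72 without wild type replicate 1 (adjusted p 0.242), less than the change of TIP2-1, and -1.59 without wild type replicate 3 (0.047). NIP1-2 (AT4G18910), which takes up aluminium malate, read -1.26, -1.24, -1.27 and -0.86 in wild type and -0.94, -1.09, -0.84 and -1.13 in MYB87-SRDX. Its groups overlapped and the difference was 0.16 ± 0.11.

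The boric acid channels NIP5-1 and NIP6-1, and the root gene NIP3-1, were also read from single probes. NIP5-1 (AT4G10380), the main boric acid importer of roots short of boron, read 0.09, -0.45, -1.10 and -0.96 in wild type and -1.11, -1.04, -1.11 and -0.93 in MYB87-SRDX. The transgenic arrays lay close together and the wild-type arrays did not, and the difference was -0.44 ± 0.24 with an adjusted p of 0.201 by limma. Without wild type replicate 1 the difference was -0.21. NIP6-1 (AT1G80760), which moves boric acid towards young shoot tissue, read -1.46, -1.09, -0.89 and -0.90 in wild type and -1.75, -1.63, -1.49 and -1.20 in MYB87-SRDX. MYB87-SRDX replicate 4 was the transgenic array that overlapped wild type, and the difference was -0.43 ± 0.16, and limma gave an adjusted p of 0.0816. The gene passed without wild type replicate 1 (0.0248) and without MYB87-SRDX replicate 4 (0.049). NIP3-1 (AT1G31885) read -3.31, -3.77, -5.002 and -4.66 in wild type and between -4.59 and -4.17 in MYB87-SRDX. Its difference of -0.18 ± 0.35 was 0.11 without wild type replicate 1.

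Of the SIPs, SIP2-1 (AT3G56950) read 1.75, 1.61, 1.42 and 1.72 in wild type and 1.81, 1.97, 2.13 and 1.95 in MYB87-SRDX. The groups did not overlap, and the gene rose by 0.34 ± 0.10, with an adjusted p of 0.0376 by limma. The call was lost in 10 of 19 alternatives. Single arrays whose removal ended it were wild type replicates 2 and 3 (adjusted p of 0.0937 and 0.0818) and MYB87-SRDX replicates 2, 3 and 4 (0.0797, 0.0775 and 0.0752). SIP1-1 (AT3G04090) read 2.47, 2.41, 2.41 and 2.43 in wild type and 2.21, 2.34, 2.15 and 2.47 in MYB87-SRDX, and differed by -0.14 ± 0.08. SIP1-2 (AT5G18290) read -1.56, -1.65, -1.87 and -1.38 in wild type and -1.41, -1.35, -1.07 and -1.42 in MYB87-SRDX. Both overlapped between the groups, and SIP1-2 differed by 0.30 ± 0.12 with an adjusted p of 0.103 by limma.

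The spread among wild-type arrays followed a shared pattern in part of the family. Of the 31 tested members, 11 had a wild-type standard deviation above 0.4, namely PIP1-1, PIP2-2, PIP2-3, PIP2-4, TIP2-3, TIP3-1, TIP4-1, NIP1-1, NIP2-1, NIP5-1 and NIP3-1. In 10 of these 11 the highest wild-type value was on replicate 1, with TIP3-1 as the exception, and in all 11 the lowest was on replicate 3 or 4. Over all 31 members, replicate 1 was the highest wild-type array for 16. On the MYB87-SRDX side replicate 3 held the lowest value for 9 of the 11 and for 20 of the 31. Wild-type standard deviations ranged from 0.0242 for TIP2-1 to 1.19 for TIP2-3. The 11 members were picked by these same wild-type values, and the tallies are not given over all loci. They therefore cannot show a trait particular to aquaporins.

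Root markers moved over the same arrays. The mean of 6 root endodermis markers (the Casparian strip genes CASP1 to CASP5 and ESB1), relative to the midpoint of the groups, was 0.89, 0.43, -0.75 and -0.60 in wild type and 0.26, 0.65, -0.95 and 0.06 in MYB87-SRDX. That of 6 root hair markers was 1.05, 0.45, -0.74 and -0.46 in wild type and 0.18, 0.29, -0.50 and -0.27 in MYB87-SRDX. In both lists 0 genes were called by limma and 0 had an unadjusted p below 0.05, where all loci gave 27.5% and 41.2%. Markers that did differ between the groups were those of xylem (CESA4, CESA7, CESA8, IRX9, LAC4 and XCP1), with 6 of 6 lower and list means from 0.31 to 1.03 in wild type against -0.79 to -0.36, and of guard cells, with 4 of 5 lower (KAT1, SLAC1, FAMA and HT1; the fifth, MYB60, differed by 0.24 ± 0.09) and list means from 0.06 to 0.44 against -0.37 to -0.11. Of 6 leaf mesophyll markers 1, LHCB1.3, was lower. Over all loci tested 12.6% were called lower, so that the leaf mesophyll count lies near the background. The part of xylem and guard cell RNA in the aquaporin values was not tested.

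**Figure D3:**
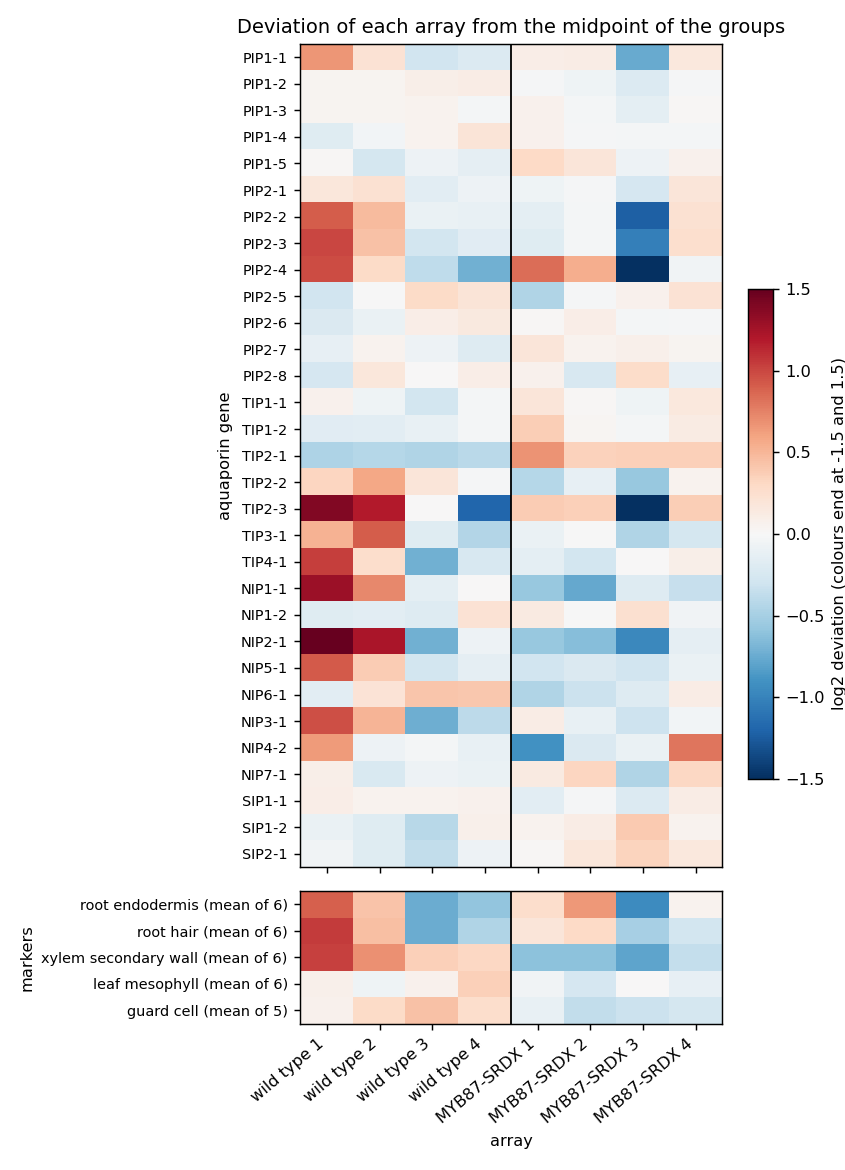
Log2 deviation of each array (columns) from the midpoint of the group means for the 31 tested aquaporins (upper rows) and for the mean of each marker list (lower rows), in colours that end at -1.5 and 1.5. TIP2-1 changes colour between the groups. PIP2-2, PIP2-3, PIP2-4, TIP2-3 and NIP2-1 are high on wild type replicate 1 and low on MYB87-SRDX replicate 3, as are the root markers. The likeness is partial. On wild type replicate 3 the root endodermis (-0.75) and root hair (-0.74) markers are low too, while PIP2-2 and TIP2-3 lie near the midpoint. NIP2-1 is also low on MYB87-SRDX replicates 1 and 2.

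The comparison was repeated with the mean of these 12 root markers on each array as a covariate, a fit chosen after the values were seen. None of the 12 is an aquaporin. The standard error became smaller for 22 of the 31 members, a share that is not given here over all loci. Calls over all loci also rose with the covariate, from 27.5% to 32.1%. With the covariate 6 members, or 19.4%, were called by limma, against 32.1% of all loci. The 2 higher members were again TIP2-1 and SIP2-1, against a background of 16.5%, and the 4 lower members were TIP2-2, NIP1-1, NIP2-1 and NIP6-1, against 15.6%.

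For the members named next, other than TIP2-1, the standard error was smaller in that fit. NIP2-1 differed by -1.08 ± 0.29 with an adjusted p of 0.0273 by limma, NIP1-1 by -0.90 ± 0.26 with 0.0356, and NIP6-1 by -0.45 ± 0.12 with 0.028. NIP5-1 differed by -0.41 ± 0.14 with an adjusted p of 0.065, PIP2-2 by -0.54 ± 0.20 with 0.0771, and PIP2-3 by -0.44 ± 0.18 with 0.0962. TIP2-1 rose by 0.87 ± 0.09, as without the covariate. PIP2-4 differed by -0.0029 ± 0.28, with an interval from -0.66 to 0.65 in place of -1.37 to 1.20. In that fit 0 of 13 PIPs were called.

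**Figure D4:**
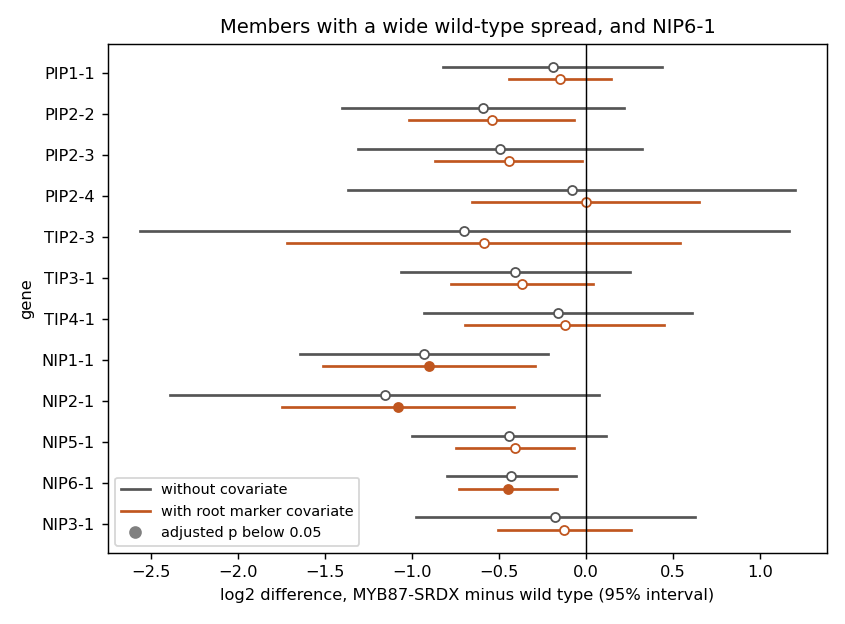
Log2 difference with its 95% confidence interval for the 11 aquaporins whose wild-type standard deviation exceeded 0.4 and for NIP6-1, without (grey) and with (orange) the root marker level of each array as a covariate. Filled points have an adjusted p below 0.05. The points hardly move, and NIP1-1, NIP2-1 and NIP6-1 become filled with the covariate.

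Genes that work beside the aquaporins were examined as lists. Boric acid that enters through NIPs is loaded onward by borate exporters of the BOR family, of which 6 of 7 were measured, with 3 higher, 1 lower and a median of 0.05. For these lists too, 27.5% of all loci were called, so that 3 calls among 10 pumps or 1 among 5 trafficking genes, described below, lie near the background. BOR1 (AT2G47160), which loads boron into the xylem, read 1.01, 0.88, 0.66 and 0.80 in wild type and 1.61, 1.40, 1.46 and 1.46 in MYB87-SRDX. All transgenic arrays were above the wild type, and BOR1 rose by 0.65 ± 0.09, with an adjusted p of 0.00308 by limma. BOR2 (AT3G62270), the closest relative of BOR1, read 1.84, 1.498, 1.04 and 1.11 in wild type and 0.26, 0.31, 0.50 and 0.65 in MYB87-SRDX. BOR2 fell by 0.94 ± 0.19 on the log2 scale, with an adjusted p of 0.0099, while BOR3 rose by 0.45 ± 0.08 and BOR7 rose by 0.52 ± 0.12.

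**Figure D5:**
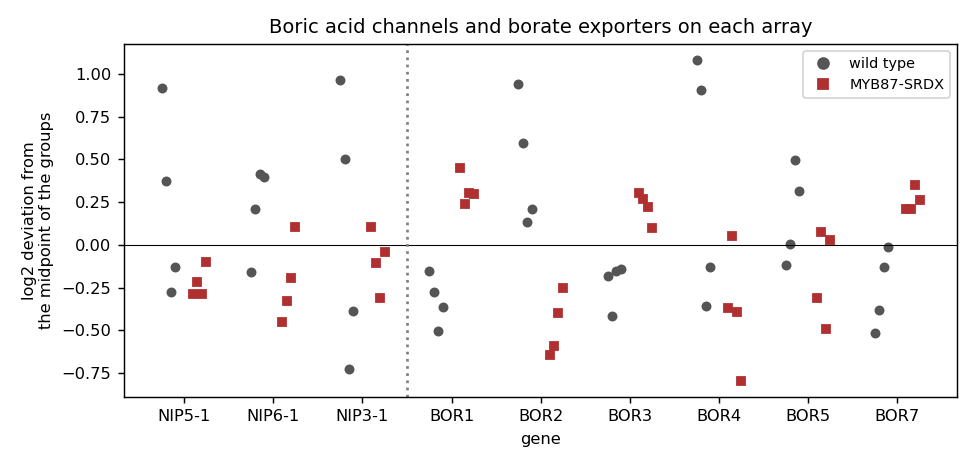
Log2 deviation of each array from the midpoint of the group means (vertical axis). The boric acid channels NIP5-1 and NIP6-1 and a further NIP, NIP3-1, are left of the dotted line, and 6 borate exporters are right of it. Grey circles are the 4 wild-type arrays and red squares the 4 MYB87-SRDX arrays. The groups separate for BOR1, BOR2, BOR3 and BOR7 and overlap for NIP5-1, NIP6-1 and NIP3-1.

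Of the plasma membrane proton pumps, 10 of 11 were measured, with 1 higher, 2 lower and a median of -0.08. AHA2 (AT4G30190), the main root pump, fell by 0.79 ± 0.12, AHA3 (AT5G57350), a pump of phloem companion cells, fell by 0.78 ± 0.15, and AHA4 rose by 0.41 ± 0.09. The adjusted p values were 0.00443, 0.00943 and 0.0141 by limma. Of 5 vacuolar proton pump genes, which energise the membrane that holds the TIPs, 0 were called by limma. An unadjusted p below 0.05 was seen for 1 of them, where all loci gave 41.2%. Their differences ran from 0.08 for VHA-a2 to 0.20 for VHA-C, with a median of 0.10.

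Among 5 genes of aquaporin trafficking and phosphorylation, 1 was called and the median was 0.02. TSPO (AT2G47770), a stress-induced membrane protein known to bind PIP2-7 and lower its amount, read -1.79, -2.01, -1.89 and -2.78 in wild type and -3.56, -3.64, -3.63 and -4.20 in MYB87-SRDX. It fell by 1.64 ± 0.24 on the log2 scale, with an adjusted p of 0.0037 by limma, and its groups did not overlap. The syntaxins SYP121 and SYP61, which bring PIPs to the plasma membrane, differed by 0.11 ± 0.09 and 0.02 ± 0.06. OST1, a kinase that phosphorylates PIP2-1, differed by -0.18 ± 0.06 with an adjusted p of 0.0647. SIRK1, a receptor kinase that acts on PIPs, differed by 0.21 ± 0.08 with an adjusted p of 0.0742.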

How the data were processed

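RNA of 8 seedling samples was read on one-colour arrays. The deposited scanner tables give linear spot intensity from Agilent Feature Extraction (9.1.3.1 in the submitters' processing notes). The authors' deposited value table is that intensity multiplied by a constant per slide (wild type 0.001094, MYB87-SRDX 0.001175), found by dividing the tables. Outlier-flagged spots were dropped, log2 processed signals were lowered by the 75th percentile of their array, and replicate spots were averaged. Probes detected well above background on 3 or more arrays of either group were retained, and each locus was represented by its brightest retained probe. Another 74 loci with a missing value were not fitted, and no aquaporin was among them. The fits used limma 3.58.1 in R 4.3.3 and were tested on simulated data, and figures used matplotlib 3.10.9. Of the 35 members, 34 carry the family name in the TAIR10.1 gene table, which lists TIP3-2 as BETA-TIP.

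The members and gene lists were chosen with earlier results of these data known. All members are accounted for. The called members and the 3 brightest of each class were to be given array by array, and called genes of the other lists named, and the other members given by array or by value were chosen after their values were seen. The alternatives changed scaling, background correction, filters, probe averaging, the variance model, a replicate block and the arrays included. Normexp used the median signal with an offset of 50, since the tables used here hold no mean signal. An offset of 50 on the processed signal and the root marker covariate were added after seeing the data. Promoter and protein sequences were not used here.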

Additional observations from a re-analysis of the deposited data

Results flagged for a closer look

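In 7 of the 62 groups of 4 arrays examined for the tested aquaporins, 1 array stood far from the others by the size of the gap to its nearest neighbour relative to the whole range. Chance alone flags about 1 in 20 such groups. MYB87-SRDX replicate 3 was lowest for PIP1-1, at 3.75 with the next array at 4.61, and for TIP2-3, at -3.15 with the next at -0.27. MYB87-SRDX replicate 1 was highest for TIP2-1, at 6.91 with the next at 6.60, and for PIP1-4, at 4.53 with the next at 4.45. Wild type replicate 4 was lowest for PIP1-3, at 5.21 with the next at 5.27, and highest for NIP1-2, at -0.86 with the next at -1.24. Wild type replicate 1 was highest for NIP4-2, at -5.65 with the next at -6.32.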

How the results depend on the processing

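TIP2-1 stayed higher in all 19 alternatives, while TIP2-2 lost its call in 11 and SIP2-1 in 10. No called member changed direction, and the signs of 14 uncalled members changed in 1 or more alternatives. Median scaling called 2618 loci higher and 1366 lower, with 0 TIPs and 1 NIP lower. Quantile scaling called 1 aquaporin higher and 2 lower, with 1 PIP lower and 0 NIPs or SIPs higher. Normexp called 846 loci higher and 493 lower, and the authors' values 1102 and 1095; in both, 1 aquaporin was higher and 0 lower, with 0 TIPs lower and 0 NIPs or SIPs higher. Without a filter on dim probes the aquaporin counts were again 1 and 0, with 0 TIPs lower and 0 NIPs or SIPs higher. The trended, robust variance called 2 aquaporins lower, 1 of them a NIP. The root marker covariate called 4 lower, 3 of them NIPs. With a replicate block, 1769 loci were higher and 1794 lower, with 1 aquaporin higher (TIP2-1), 0 TIPs lower, 0 NIPs or SIPs higher and 1 NIP lower (NIP6-1, adjusted p 0.0352 by limma). Same-numbered arrays are not paired by the labels, and their deviations correlated between -0.223 and 0.155. Leaving out each array gave 1510 to 3022 loci higher and 1358 to 2901 lower, 1 to 2 aquaporins higher and 0 to 2 lower, 0 to 1 TIPs lower, 0 to 1 NIPs or SIPs higher and 0 to 2 lower. The cause of these changes was not tested. Low signal limits PIP2-5, TIP3-1, NIP2-1, NIP3-1, NIP4-2 and NIP7-1, and normexp moved NIP3-1 from -0.18 to 0.33 and NIP2-1 from -1.16 to -0.39.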
